A study of Homo sapiens with 14 samples.

Results

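The PRMT5 methylosome is the protein complex in which PRMT5, the main source of symmetric dimethylarginine, works. The genes described here are PRMT5, its obligate partner WDR77, the substrate adaptors CLNS1A, RIOK1 and COPRS, and MAT2A and MTAP, the enzymes that set the supply of methyl donor and the removal of its by-product. They were chosen by name, as the rows of each TPM table whose gene symbol is one of these 7, and all 7 were found in both tables, among 16237 genes in one and 16137 in the other. TPM is a transcript level corrected for length and scaled to a fixed total in each library. The RNA-seq libraries, 10 in all from 2 experiments, come from UM1, an established human cell line derived from a squamous carcinoma of the tongue. The knockdown experiment has 2 libraries of UM1 cells with a short hairpin against GFP (shGFP) and 2 with a hairpin against PRMT5 (shPRMT5). The overexpression experiment has 3 libraries of UM1 cells with an empty vector and 3 of cells made to overexpress ΔNp63α, the TP63 product of basal squamous epithelium. The labels give no hairpin sequence, time after transduction or clone status. They name no second hairpin against PRMT5, so none can be compared.

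PRMT5 and WDR77 form a stable complex, and in animal cells WDR77 is needed for PRMT5 to be active and to bind substrates. CLNS1A, also called pICln, presents the Sm proteins of splicing ribonucleoproteins to the enzyme; RIOK1 competes with it for the same surface of PRMT5 and brings nucleolin instead; COPRS ties PRMT5 to histones in the nucleus. MAT2A makes S-adenosylmethionine, the methyl donor. MTAP degrades methylthioadenosine, a by-product of polyamine synthesis that competes with the donor at PRMT5, and the MTAP gene is often deleted together with its neighbour CDKN2A in tumours. The series asks what PRMT5 does to transcriptional control by ΔNp63α.

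Every library correlated better with those of its own group than with those of the other, on the log2 scale over the genes tested. Vector replicate 1 came closest to the other group, with a highest r of 0.964 to a ΔNp63α library, against a lowest r of 0.976 within its own group. All 9 squamous epithelial markers fixed for the check, KRT5, KRT14 and SFN among them, were listed in both tables, and 0 of 5 leukocyte markers were. Of the fibroblast markers 3 of 5 were listed, and COL1A2 and DCN were not listed in either table. The summed squamous markers lay between 12946 and 14505 TPM in the knockdown table, between 8180 and 15130 TPM with vector and between 18939 and 34370 TPM with ΔNp63α. The sum of the listed fibroblast markers, mainly LUM and COL1A1, lay between 6.60 and 8.90 TPM under shGFP, between 9.10 and 11.3 TPM under shPRMT5, between 29.7 and 38.2 TPM with vector and between 42.8 and 61.5 TPM with ΔNp63α. Of 3 endothelial markers, 2 were listed in the knockdown table and 1 in the other, with sums of at most 1.39 TPM. Mitochondrially encoded transcripts took 20.0% to 26.5% of the TPM with vector and 18.3% to 21.03% with ΔNp63α, and the knockdown table lists 0 of these genes. The overexpression was also fitted without the mitochondrially encoded genes, as given under the processing. Otherwise the part of these shifts in the results below was not tested. Replicates are titled biological, but no label states that cultures were separate; p-values therefore measure the spread between these libraries, which may be technical.

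The promoters of PRMT5, WDR77 and MAT2A are shown because these members were higher together under ΔNp63α. Each runs from 250 bases before to 50 bases after the annotated start and is taken from RefSeq, build GRCh38.p14, in which all 7 members were matched by symbol. Capitals mark matches on either strand to the CCAAT box, to the E-box core CACGTG, to the GC box GGGCGG and to the TATA element TATAAA, with no overlap between matches. The motifs were chosen after the sequences had been read.
PRMT5, chr14:22929327-22929626, minus strand: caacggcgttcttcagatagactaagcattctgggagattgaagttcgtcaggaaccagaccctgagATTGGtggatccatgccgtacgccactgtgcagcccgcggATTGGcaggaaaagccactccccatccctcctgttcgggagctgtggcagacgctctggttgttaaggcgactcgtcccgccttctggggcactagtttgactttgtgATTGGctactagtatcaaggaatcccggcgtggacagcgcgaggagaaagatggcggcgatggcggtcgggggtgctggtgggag
WDR77, chr1:111449207-111449506, minus strand: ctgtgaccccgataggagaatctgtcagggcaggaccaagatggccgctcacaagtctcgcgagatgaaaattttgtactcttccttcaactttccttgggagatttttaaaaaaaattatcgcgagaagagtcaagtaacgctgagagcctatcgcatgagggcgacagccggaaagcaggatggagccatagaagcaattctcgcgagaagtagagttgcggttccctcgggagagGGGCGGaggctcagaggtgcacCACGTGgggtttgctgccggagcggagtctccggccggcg
MAT2A, chr2:85538918-85539217, plus strand: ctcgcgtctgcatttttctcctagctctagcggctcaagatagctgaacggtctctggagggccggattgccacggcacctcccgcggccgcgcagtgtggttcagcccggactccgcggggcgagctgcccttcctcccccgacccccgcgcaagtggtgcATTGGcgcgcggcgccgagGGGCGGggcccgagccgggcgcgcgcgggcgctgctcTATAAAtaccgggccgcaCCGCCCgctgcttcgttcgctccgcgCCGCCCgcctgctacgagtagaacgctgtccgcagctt

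The 3 promoters differ in what they hold. That of PRMT5 has 3 CCAAT boxes, all on the reverse strand, where they read ATTGG, at 183, 143 and 35 bases before the start; 35.7% of 27305 promoters of this length have at least 1. WDR77 has none of these, and has 1 GC box, found in 44.6% of promoters, and 1 E-box core, found in 7.43%. MAT2A has a TATAAA element 32 bases before the start, found in 12.0% of promoters, beside 1 CCAAT box and 3 GC boxes, and its GC content is 71% against 58% for PRMT5 and 54.7% for WDR77. The decamer half-site of the p53 family was searched too and was found in 0 of the 7 member promoters and in 6.54% of all. A match describes letters in a window and not a bound factor, and nothing is drawn from a missing match.

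Knockdown lowered PRMT5 mRNA, and of its 6 partner and cofactor mRNAs 0 were called lower. MAT2A and MTAP were higher, and WDR77, CLNS1A, RIOK1 and COPRS were not called. PRMT5 (ENSG00000100462) stood at 143 and 126 TPM in shGFP cells against 29.3 and 33.6 TPM under shPRMT5, with both shPRMT5 libraries far below. The log2 fold was -2.06 (95% interval -2.43 to -1.69, limma adjusted p = 9.74e-09) and lay between -2.33 and -1.96, called each time, under all 11 alternative processings. In bulk RNA a partial fall in every cell and a deeper fall in some of the cells cannot be told apart. Of the 7 genes, 2 were called higher and 1 lower, against a background of 15.1% of all 12635 genes called higher and 3.48% called lower. Of the 7, 4 were higher and 2 lower with no overlap between groups, as 49% and 14% of all genes were. Without either shPRMT5 library fewer members were called higher, and without shGFP replicate 2 more were. The same was true of all genes tested. With PRMT5 set aside the median log2 fold of the members was 0.45, beside 0.25 for all genes tested.

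**Figure D1:**
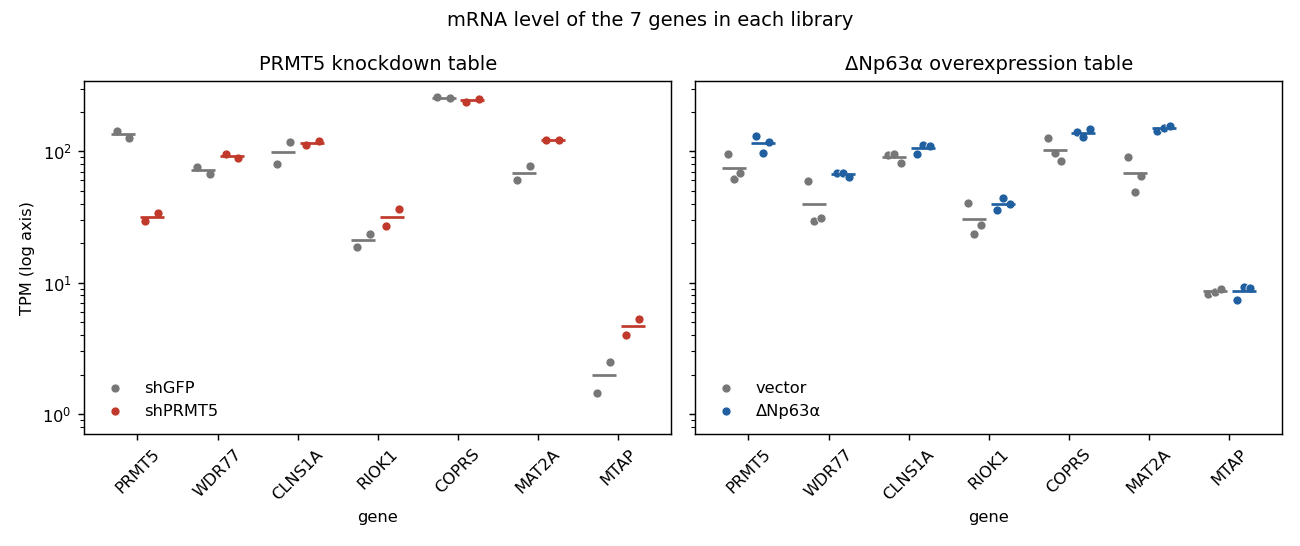
TPM of the 7 genes (log axis) in each library of the knockdown table (left) and of the overexpression table (right); points are libraries and short lines group means. In the left panel PRMT5 falls to 29.3 and 33.6 TPM, far below its control group, COPRS lies just below its own, and MTAP is the lowest member in every group.

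WDR77 (ENSG00000116455), the WD-repeat partner, stood at 76.3 and 66.9 TPM in shGFP cells against 94.6 and 88.7 TPM under shPRMT5. The groups did not overlap, with shPRMT5 higher. The log2 fold was 0.35 (SE 0.17, limma adjusted p = 0.145), 0.08 after rescaling of the libraries by the median of ratios, and 0.45 with a call only without shGFP replicate 1. Its 95% interval ran from 0.00 to 0.71 on the deposited scale. The number of WDR77 transcripts per PRMT5 transcript, a ratio that library scaling cannot change, went from 0.534 and 0.531 under shGFP to 3.23 and 2.64 under shPRMT5. The fall of PRMT5 itself raises this ratio.

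The adaptors were not called under the reported processing, and their folds were not compared with each other. CLNS1A (ENSG00000074201) was at 79.8 and 117 TPM in shGFP cells against 111 and 121 TPM in shPRMT5 cells. The shGFP libraries differed more from each other than the groups did: the log2 fold was 0.26 (SE 0.18, limma adjusted p = 0.319), but -0.01 without shGFP replicate 1, 0.53 with a call without shGFP replicate 2, and -0.01 after rescaling. RIOK1 (ENSG00000124784) was at 18.6 and 23.4 TPM in shGFP cells against 26.8 and 36.2 TPM under shPRMT5, with shPRMT5 higher and no overlap. Its log2 fold of 0.55 (SE 0.22, limma adjusted p = 0.0691) missed the threshold and passed it without shGFP replicate 2, where it was 0.71, under the stricter filter (mean TPM of 5) and under a replicate block. COPRS (ENSG00000172301) was at 258 and 253 TPM in shGFP cells against 236 and 250 TPM in shPRMT5 cells, so that shPRMT5 lay just below shGFP. Its log2 fold was -0.07 (95% interval -0.37 to 0.23, limma adjusted p = 0.765) and -0.34 after rescaling, with a call in 0 of 11 alternatives.

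MAT2A (ENSG00000168906), the synthase of the methyl donor, was at 60.7 and 76.9 TPM in shGFP cells against 121 TPM in both shPRMT5 libraries. The shPRMT5 libraries were alike and both lay above the controls, by 1.76-fold on the means (log2 fold 0.81, SE 0.17, limma adjusted p = 0.00233). The call was lost after rescaling (0.54, limma adjusted p = 0.0596) and without either shPRMT5 library, replicate 1 (0.81) or replicate 2 (0.82). MTAP (ENSG00000099810) was at 1.46 and 2.50 TPM in shGFP cells against 4.004 and 5.29 TPM under shPRMT5, which put shPRMT5 above shGFP in each library. Its log2 fold was 0.94 (SE 0.29, limma adjusted p = 0.0259) with a pseudocount of 1 TPM and 1.22 with one of 0.1 TPM, since the larger pseudocount dampens the change of a gene this low. The call was lost without shGFP replicate 1 (0.68), without shPRMT5 replicate 2 (0.77), after rescaling (0.73), after quantile normalization (0.66) and with no filter on low values (0.94). After rescaling 0 members were called higher and 1, PRMT5, lower, against 3.8% and 7.01% of all genes.

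**Figure D2:**
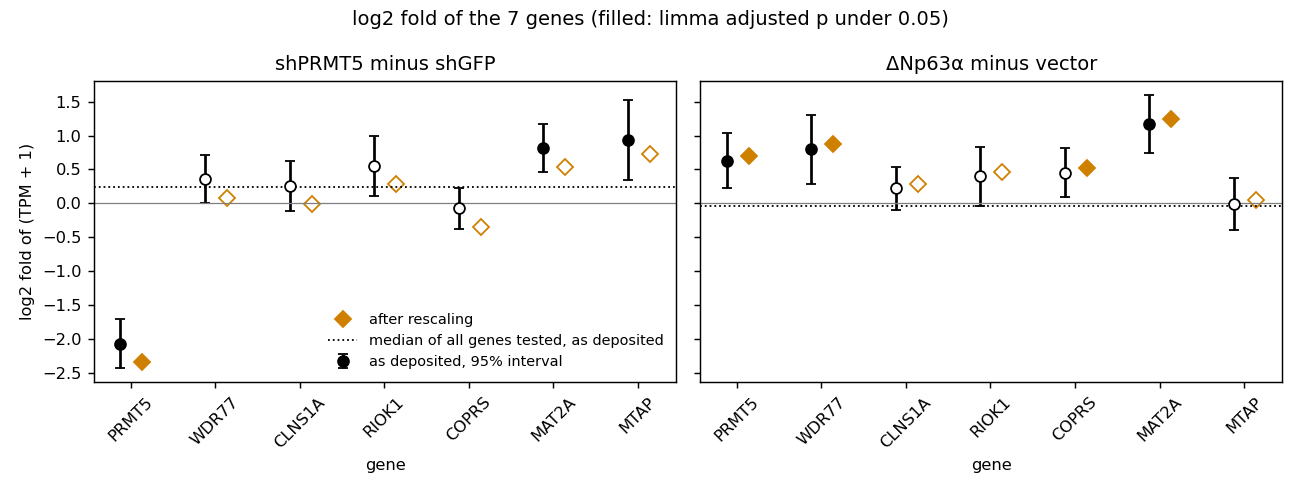
log2 fold of TPM + 1 for the 7 genes, shPRMT5 minus shGFP (left) and ΔNp63α minus vector (right). Circles with 95% limma intervals are the deposited scale, diamonds the libraries rescaled by median of ratios, filled symbols have an adjusted p under 0.05, and the dotted line is the median of all genes tested (0.25 left, -0.04 right); MAT2A is the gene filled as a circle on the upper side of both panels.

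The order of levels among the 7 mRNAs differed between the groups. Under shGFP it ran COPRS, PRMT5, CLNS1A, WDR77, MAT2A, RIOK1 and MTAP, with overlap between neighbours only for WDR77 and MAT2A. Under shPRMT5 it ran COPRS, MAT2A, CLNS1A, WDR77, PRMT5, RIOK1 and MTAP, and PRMT5 (31.5 ± 3.06 TPM, SD, n = 2) overlapped with RIOK1 (31.5 ± 6.64 TPM). RIOK1 transcripts per PRMT5 transcript went from 0.131 and 0.185 to 0.913 and 1.08. CLNS1A per PRMT5 went from 0.559 and 0.925 to 3.77 and 3.59, and COPRS per PRMT5 from 1.81 and 2.01 to 8.07 and 7.44. MAT2A per PRMT5 went from 0.425 and 0.610 to 4.14 and 3.59. In all 6 ratios to PRMT5 the groups stood apart. The fall of PRMT5, the denominator, by itself raises each ratio, so the separation does not show a change of the partners. COPRS, whose own log2 fold was -0.07, still had a 4.06-fold higher ratio. With 2 libraries a group an exact two-sided permutation test cannot go below p = 0.333, the value each ratio had.

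**Figure D3:**
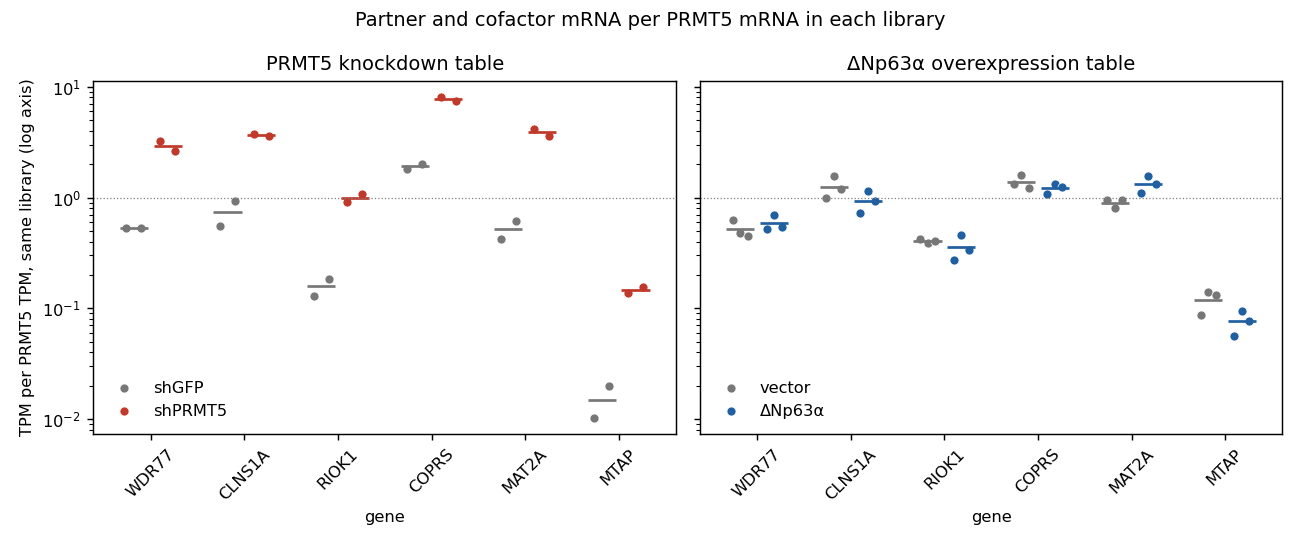
TPM of each partner or cofactor divided by PRMT5 TPM of the same library (log axis), in the knockdown table (left) and the overexpression table (right); points are libraries, short lines group means, the dotted line equal levels. The shPRMT5 points lie above the shGFP points for all 6 genes, while the ΔNp63α and vector points overlap for all but MAT2A. PRMT5 is the denominator, so its own fall raises every shPRMT5 point.

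Under ΔNp63α overexpression PRMT5, WDR77 and MAT2A were higher, and 0 members were lower. MAT2A moved most, 2.21-fold, and was called in all 14 alternative processings, whereas the calls of PRMT5 (1.54-fold) and WDR77 (1.67-fold) did not outlast the removal of most single libraries. With 3 of 7 members called higher the background was 7.34% of 13382 genes higher and 14.1% lower, and after rescaling 4 of 7 were, against 10.5% higher and 13% lower in all. Groups stood apart upward for 4 members and downward for 0, as they did for 14.2% and 23.7% of all genes. Of the members 0 were lower at an unadjusted p under 0.05 too. Without vector replicate 1 the count of higher members was 5. It was 1 without vector replicate 2 or 3 or ΔNp63α replicate 1 or 3, and 2 without ΔNp63α replicate 2. The count of all genes called higher moved too with a library left out, here and for the lists below. The median log2 fold of the members was 0.45, beside -0.04 for all genes tested.

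PRMT5 stood at 95.4, 61.1 and 68.6 TPM with vector and at 131, 97.0 and 118 TPM with ΔNp63α. All ΔNp63α libraries lay above all vector libraries, by a narrow margin between ΔNp63α replicate 2 and vector replicate 1. The log2 fold was 0.63 (SE 0.19, limma adjusted p = 0.0325), and the call was lost without vector replicate 2 (0.50), vector replicate 3 (0.58), ΔNp63α replicate 1 (0.53) or ΔNp63α replicate 3 (0.61), and without the intensity trend. WDR77 was at 59.7, 29.3 and 31.1 TPM with vector and at 68.6, 68.1 and 63.6 TPM with ΔNp63α. Vector replicate 1 lay near the ΔNp63α libraries and the other vector libraries far below them. The log2 fold was 0.80 (SE 0.23, limma adjusted p = 0.0297), 1.12 without vector replicate 1, and between 0.62 and 0.83 with no call without any of the other 5 libraries. WDR77 per PRMT5 was 0.626, 0.480 and 0.452 with vector and 0.524, 0.702 and 0.538 with ΔNp63α, and the groups overlapped (exact two-sided permutation p = 0.5, where 3 libraries a group cannot go below 0.1).

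Of the adaptors, COPRS was at 126, 97.5 and 84.5 TPM with vector and at 141, 129 and 147 TPM with ΔNp63α. The groups did not overlap and the log2 fold of 0.45 (SE 0.17, limma adjusted p = 0.0731) missed the threshold, while it passed after rescaling (0.52, limma adjusted p = 0.0392), without vector replicate 1 (0.61), after quantile normalization and under a replicate block. RIOK1 was at 40.2, 23.6 and 27.6 TPM with vector and at 35.5, 44.3 and 39.5 TPM with ΔNp63α, with vector replicate 1 inside the range of the other group. Its log2 fold of 0.40 (limma adjusted p = 0.172) was 0.61 with a call without that library. CLNS1A was at 93.7, 95.9 and 81.1 TPM with vector and at 95.7, 111 and 109 TPM with ΔNp63α; the groups overlapped and the log2 fold of 0.22 (95% interval -0.09 to 0.54, limma adjusted p = 0.303) was called in 0 of 14 alternatives.

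MAT2A was at 89.7, 48.9 and 65.3 TPM with vector and at 143, 151 and 156 TPM with ΔNp63α. The ΔNp63α libraries were close together and far above each vector library (log2 fold 1.17, SE 0.20, limma adjusted p = 0.00158; 0.96 to 1.39 over 14 alternatives, limma adjusted p from 3.0e-05 to 0.011). MAT2A transcripts per PRMT5 transcript were 0.941, 0.800 and 0.951 with vector and 1.09, 1.55 and 1.32 with ΔNp63α, with no overlap. The exact two-sided permutation p was 0.1, the smallest that 3 libraries a group allow, and 0.32 adjusted over 8 ratios. MTAP was at 8.25, 8.53 and 8.98 TPM with vector and at 7.41, 9.21 and 9.12 TPM with ΔNp63α. The groups overlapped, and the log2 fold of -0.01 had a 95% interval of -0.39 to 0.38 (limma adjusted p = 0.986), with both signs among the alternatives. MAT2A per MTAP went from 7.96 ± 2.64 to 17.6 ± 1.51 (SD, n = 3 each).

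**Figure D4:**
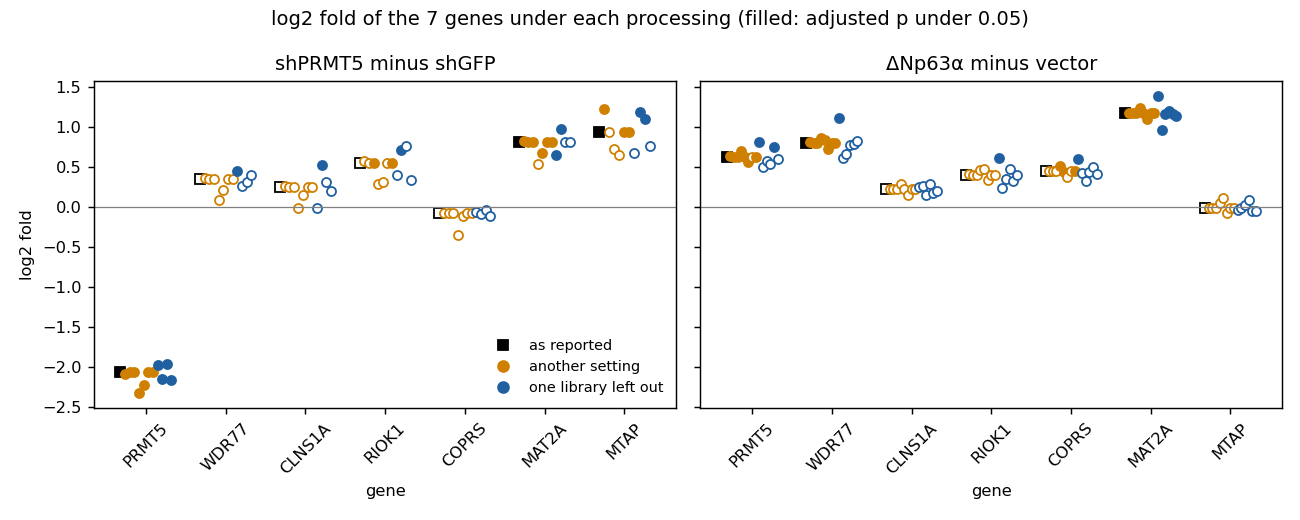
log2 fold of the 7 genes under the reported processing (black squares), other settings (orange) and with 1 library left out (blue), shPRMT5 minus shGFP (left) and ΔNp63α minus vector (right); filled symbols have a limma adjusted p under 0.05. PRMT5 on the left and MAT2A on the right are filled throughout, and the WDR77 points on the right turn open when a library other than vector replicate 1 is left out.

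The order of levels with vector ran COPRS, CLNS1A, PRMT5, MAT2A, WDR77, RIOK1 and MTAP, and each neighbour overlapped with the next except RIOK1 and MTAP. With ΔNp63α, MAT2A (150 ± 6.81 TPM, SD, n = 3) came first, followed by COPRS (138.8 ± 9.34 TPM), PRMT5 and CLNS1A, with overlap between each of these neighbours, and then, each apart from the one before, WDR77, RIOK1 and MTAP. On the deposited scale MAT2A was thus the 1 member called higher in both experiments, as 1.75% of the 11999 genes tested in both were. After rescaling its knockdown call was lost (limma adjusted p = 0.0596), and 0 members were called higher in the knockdown. The experiments share no library.

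Within groups, deviations of 10 libraries from their group means were compared as a description, since libraries of a table share their preparation and TPM share a total. WDR77 deviated with COPRS (Pearson r = 0.81), PRMT5 (0.77) and MAT2A (0.75), PRMT5 with COPRS (0.78), and RIOK1 with MAT2A (0.84). Vector replicate 1 was the highest vector library for each of these genes, and r without it is not given here. Deviations sum to 0 within a group, so those of 2 libraries mirror each other and the 10 values are not independent. CLNS1A and MTAP deviated together (0.81), and CLNS1A and WDR77 had r = -0.045. Over all 10 libraries with each table centred, PRMT5 and WDR77 had r = 0.13, with r = -0.91 in the 4 knockdown libraries and 0.93 in the 6 overexpression libraries.

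Likeness to each member was read by the same measure over 10 libraries and 10997 genes. Closest to PRMT5 were SNX17 (r = 0.967), MRPL24 (0.958), the pseudogene SNRPCP2 (0.953), ARFIP2 (0.937) and TMEM52 (0.928). Under shPRMT5 their log2 folds ran from -0.47 (TMEM52) to -2.59 (MRPL24), beside -2.06 for PRMT5, and none was called under ΔNp63α. The choice by likeness over the same libraries largely fixes these falls. The highest r to WDR77 were those of PPIF (0.988) and CIAPIN1 (0.979), to CLNS1A of PSMA4 (0.981) and MRPL39 (0.978), and to RIOK1 of IARS (0.981) and PUS7 (0.978). For COPRS they were MPV17L2 (0.976) and MALSU1 (0.975), for MTAP PHKB (0.989) and AP3B1 (0.989). MED28 (0.984) came second to MAT2A, and UMPS, an enzyme of pyrimidine synthesis, came first (0.984). Its log2 folds were 0.76 under shPRMT5 and 1.08 under ΔNp63α, which the choice by likeness to MAT2A over the same libraries largely fixes.

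Of 18 tested genes of the methionine cycle and methyl donor supply, with MAT2A among them, 5 were higher and 2 lower under shPRMT5, where 15.1% and 3.48% of all genes were, and 1 was higher and 2 lower after rescaling, where 3.8% and 7.01% were. Their median log2 fold was 0.33, beside 0.25 for all genes. CTH, the last enzyme of the path from homocysteine to cysteine, went from 18.6 and 20.7 TPM to 39.6 and 44.3 TPM (log2 fold 1.05, SE 0.20, limma adjusted p = 0.00101), with no overlap and a call in all alternatives but that without shPRMT5 replicate 2 (0.97). MTHFD1, a trifunctional enzyme of the folate cycle, was 1.80-fold higher, with its call lost after rescaling (0.55) and quantile normalization and without shPRMT5 replicate 1 (0.89) or 2 (0.74). Fewer genes of the list were called higher without either shPRMT5 library and more without shGFP replicate 2, as was true of all genes tested. Under ΔNp63α 2 of 21 were higher and 0 lower, beside 7.34% and 14.1% of all genes: MAT2A and its paralog MAT1A, the form of liver. MAT1A was low, at 0.569, 0.432 and 0.511 TPM with vector and at 1.85, 1.28 and 1.64 TPM with ΔNp63α (log2 fold 0.78, SE 0.21, limma adjusted p = 0.0217), and lost its call without vector replicate 2 (0.74) or 3 (0.78). It passed the filter at a mean TPM of 1 only through the group where it is high, and without ΔNp63α replicate 1 or 3 it fell under the filter, so its call and its place in the count of 2 carry little weight. The list's median was 0.04, beside -0.04 for all genes, and 1 to 4 genes were higher with a library left out, 4 without vector replicate 1.

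Methionine salvage and polyamines form the path that makes and clears methylthioadenosine. Of its 16 tested genes 4, the member MTAP among them, were higher and 3 lower under shPRMT5, beside 15.1% and 3.48% of all genes. After rescaling 0 of the 16 were higher and 3 lower, beside 3.8% and 7.01%. Their median was 0.25, as that of all genes. ADI1, a dioxygenase late in the salvage path begun by MTAP, fell from 12.7 and 14.5 TPM to 5.43 and 5.66 TPM (log2 fold -1.15, SE 0.25, limma adjusted p = 0.00241), a call kept in all 11 alternatives. AZIN1, which protects ornithine decarboxylase from degradation, was 1.77-fold higher and not called after rescaling (0.51), after quantile normalization, without the intensity trend or without shPRMT5 replicate 2 (0.53). The list had fewer higher genes without either shPRMT5 library and more without shGFP replicate 2, as all genes tested did. Under ΔNp63α 2 of 15 were higher and 2 lower, beside 7.34% and 14.1% of all genes (4 and 2 after rescaling, beside 10.5% and 13%; median -0.01), with 5 higher without vector replicate 1 and 0 lower without ΔNp63α replicate 1. ODC1, the ornithine decarboxylase that opens polyamine synthesis, rose from 170, 106 and 106 TPM to 430, 404 and 406 TPM (log2 fold 1.73, SE 0.18, limma adjusted p = 7.51e-05). SAT1, the acetylase that opens polyamine breakdown, fell from 237, 936 and 804 TPM to 91.3, 210 and 153 TPM (log2 fold -1.97, SE 0.43, limma adjusted p = 0.00745), with vector replicate 1 near the ΔNp63α range. SAT1 was not called without ΔNp63α replicate 1 (-1.65), and its log2 fold was -2.59 without vector replicate 1. SMOX, the spermine oxidase, was lower (-0.82), with no call after quantile normalization or without any 1 library other than vector replicate 1 (-0.65 to -0.84). ADI1 was called higher there, at 0.80. ADI1 thus fell in one experiment and rose in the other.

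**Figure D5:**
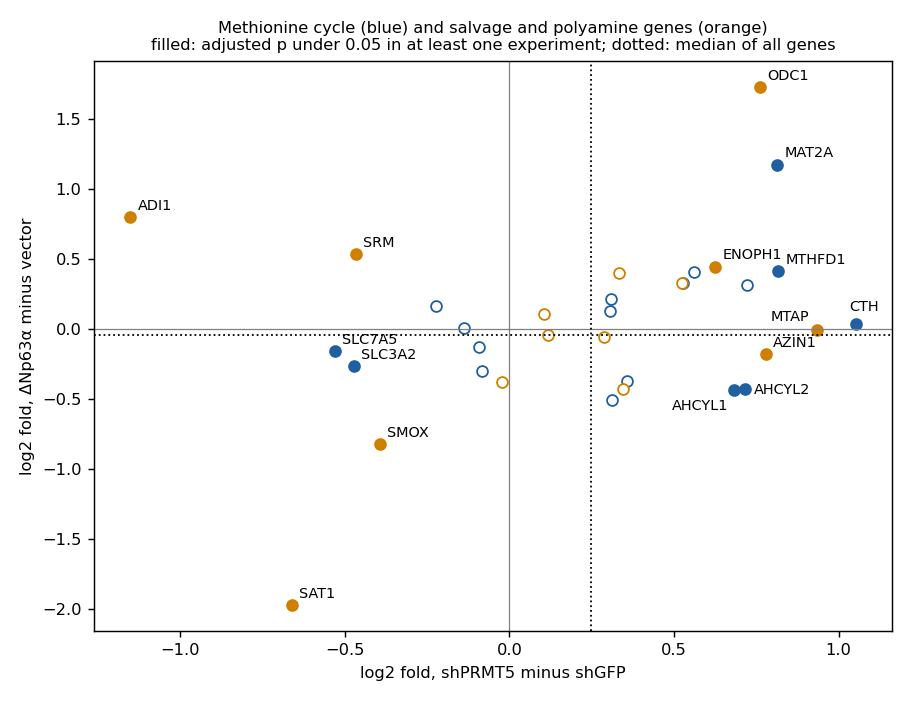
log2 fold under shPRMT5 (horizontal axis) against log2 fold under ΔNp63α (vertical axis) for the 33 genes of the methionine cycle (blue) and of salvage and polyamines (orange) tested in both experiments; filled and named genes were called in at least 1. MAT2A and ODC1 lie at the upper right, SAT1 at the lower left and ADI1 at the upper left.

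The Sm proteins are substrates that CLNS1A presents to PRMT5, and the SMN complex assembles them onto snRNA. Of 18 tested genes of this list 5 were higher and 0 lower under shPRMT5, beside 15.1% and 3.48% of all genes, and 1 was higher after rescaling, beside 3.8%; the median was 0.17, beside 0.25 for all genes. Without either shPRMT5 library fewer genes of the list were called higher, as was true of all genes tested. SNRPD3, an Sm protein with methylated arginines, went from 16.2 TPM in both shGFP libraries to 28.4 and 34.3 TPM (log2 fold 0.91, SE 0.21, limma adjusted p = 0.00481), a call lost without shPRMT5 replicate 2 (0.77). DDX20 and GEMIN5, parts of the SMN complex, had log2 folds of 0.81 and 0.82 and lost their calls after rescaling (0.58 and 0.56), after quantile normalization, with no filter, and without shPRMT5 replicate 1 (0.85 and 0.96) or 2 (0.77 and 0.68), DDX20 also without the intensity trend and without shGFP replicate 1 (0.46). Under ΔNp63α 8 of 20 were higher and 0 lower before and after rescaling, beside 7.34% and 10.5% of all genes higher, with a median of 0.44, beside -0.04 for all genes. With a library left out between 3 and 11 were higher, 3 without vector replicate 3, ΔNp63α replicate 2 or ΔNp63α replicate 3 and 11 without vector replicate 1. SNRPD3 was at 33.4, 27.9 and 27.8 TPM with vector and at 50.2, 56.3 and 59.7 TPM with ΔNp63α (log2 fold 0.88, SE 0.15, limma adjusted p = 0.00210). SNRPE rose by 0.84 and SNRPG by 0.75 on the log2 scale. SNRPD3, SNRPE and SNRPG were called in all 14 alternatives. SMN1 and SMN2, which are near-identical, did not pass the filter on low values in the knockdown table and are uncertain.

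Of 20 known PRMT5 substrates 7 were higher and 0 lower under shPRMT5, beside 15.1% and 3.48% of all genes, and 2 were higher after rescaling, beside 3.8%. The median was 0.37, beside 0.25. KLF5, a factor of squamous and basal epithelium, went from 56.0 and 48.6 TPM to 112 and 154 TPM, by 1.32 on the log2 scale (SE 0.18, limma adjusted p = 2.32e-05), and was called in all 11 alternatives. NCL, the nucleolin that RIOK1 brings to PRMT5, went from 71.0 and 96.5 TPM to 138 and 186 TPM (log2 fold 0.95, SE 0.18, limma adjusted p = 0.00100), with its call lost without shPRMT5 replicate 2 (0.73). SRSF1, a splicing factor, had a log2 fold of 0.73 under shPRMT5, lost after rescaling (0.46), after quantile normalization, with no filter, without the intensity trend and without shPRMT5 replicate 1 (0.76) or 2 (0.70). Fewer substrates were called higher without either shPRMT5 library, as was true of all genes tested. Under ΔNp63α 3 of 20 were higher and 2 lower, beside 7.34% and 14.1% of all genes (4 and 3 after rescaling, beside 10.5% and 13%; median 0.10). SRSF1 rose from 24.5, 18.4 and 17.9 TPM to 48.3, 63.4 and 56.8 TPM (log2 fold 1.43, SE 0.18, limma adjusted p = 0.00021), called in all 14 alternatives. EGFR, a growth factor receptor, was lower (-0.73), with a call lost without vector replicate 1 (-0.62) or 3 (-0.60) or any ΔNp63α library (-0.70 to -0.76). TP63 itself was 1.51-fold higher, and its call was kept without vector replicate 1 and lost without any other library (0.46 to 0.66) and without the intensity trend. The count of higher substrates was 1 without vector replicate 2 or any ΔNp63α library and 6 without vector replicate 1. These are mRNA levels and say nothing of methylation.

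Of 20 tested binding partners and regulators of PRMT5, 4 were higher and 0 lower under shPRMT5, near the 15.1% and 3.48% of all genes, and 0 were higher and 1 lower after rescaling, beside 3.8% and 7.01% (median 0.32, beside 0.25). The chaperone HSP90AB1 went from 1545 and 1687 TPM to 2361 and 2737 TPM (log2 fold 0.65, SE 0.12, limma adjusted p = 0.000909), lost after rescaling (0.38), without the intensity trend and without shPRMT5 replicate 2 (0.55). ERH, a small protein found with the methylosome, and the chromatin remodeller SMARCA4 each had a log2 fold of 0.62. Without shGFP replicate 2 these were 1.02 for ERH and 0.39 for SMARCA4, both called. ERH lost its call without shGFP replicate 1 (0.23) or shPRMT5 replicate 2 (0.50), and SMARCA4 without shPRMT5 replicate 1 (0.70) or 2 (0.54), and both lost theirs after rescaling, after quantile normalization, with no filter and without the intensity trend. The list had fewer higher genes without either shPRMT5 library, as all genes tested did. Under ΔNp63α 2 of 22 were higher, near the 7.34% of all genes, and 0 lower, beside 14.1% (2 and 0 after rescaling, median 0.04). ERH went from 236, 184 and 123 TPM to 275, 357 and 326 TPM (log2 fold 0.86, SE 0.21, limma adjusted p = 0.0139), lost without ΔNp63α replicate 2 (0.77). AJUBA, a LIM protein, had a log2 fold of 0.79, lost without vector replicate 2 (0.63) or 3 (0.67) or ΔNp63α replicate 1 (0.69), and without vector replicate 1 the list had 5 higher genes.

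The genes around MTAP on 9p21, which tumours often lose with it, were read as a list too. CDKN2A, which encodes the p16 and ARF proteins, was listed in both tables, at 101, 96.5 and 86.8 TPM with vector and at 142, 126 and 133 TPM with ΔNp63α (log2 fold 0.49, SE 0.14, limma adjusted p = 0.0271). That call disappeared without vector replicate 3 (0.43), ΔNp63α replicate 1 (0.44) or ΔNp63α replicate 3 (0.49) and without the intensity trend, and 1 of 8 tested neighbours was higher there and 0 lower before and after rescaling, beside 7.34% and 10.5% of all genes higher. Under shPRMT5 2 of 7 were higher and 0 lower, beside 15.1% and 3.48% of all genes, and 0 in either direction after rescaling. They were CDKN2B, an inhibitor of G1 kinases (8.51 and 7.65 to 12.9 and 17.6 TPM, limma adjusted p = 0.0202 at a log2 fold of 0.82), and FOCAD (5.77 and 5.76 to 9.40 and 10.6 TPM; log2 fold 0.70, limma adjusted p = 0.0491). CDKN2B lost its call without shPRMT5 replicate 2 (0.61), after rescaling, after quantile normalization and with no filter, and FOCAD without any 1 library (0.62 to 0.78), after rescaling, after quantile normalization, with no filter and without the intensity trend. CDKN2B overlaps the antisense gene CDKN2B-AS1, and reads of both cannot be told apart if strand was not used. Some lists had 0 genes called lower by limma. Of these, those of the knockdown (Sm proteins, substrates, binding partners and 9p21) had 0 lower at an unadjusted p under 0.05. Under ΔNp63α the methionine cycle had 5, the Sm proteins 1, the binding partners 1 and 9p21 0. The share of all genes lower at that threshold was not computed, so nothing is drawn from these counts or from that of the members.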

How the data were processed

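RNA-seq libraries of UM1 cells were grouped by sample title into shGFP (2), shPRMT5 (2), vector (3) and ΔNp63α (3); CUT&Tag samples (4) were not used here. The authors deposited TPM, each column of which sums to 1e+06, in 1 table per experiment. Per the submitters' processing notes, the tools were DESeq2 1.24.0, FastQC, featureCounts and Bowtie and the builds hg19 and GRCh37, with no role stated. The tool behind the TPM and the use of strand in counting are not given in the sources used here. No listed value is 0, and the labels give no reason for a gene being unlisted. TPM keeps no depth, so no counting interval can be given. The tables were normalized separately, and levels are tested only within one.

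Blank rows (2 and 1) were left out and 9 date-like symbols in each table restored from the gene ID. In R 4.3.3, limma 3.58.1 was fitted to log2(TPM + 1) of the genes whose mean TPM reached 1 (12635 and 13382), with a trended eBayes and two-sided tests, and calls were made where the p adjusted by Benjamini-Hochberg over all of them was under 0.05. Log2 folds with this pseudocount understate changes of low genes; a fold given without log2 is the ratio of mean TPM. Median-of-ratios rescaling took the all-gene median log2 fold from 0.25 to 0.01 in the knockdown and from -0.04 to 0.02 in the overexpression. Data simulated from each table had independent noise per gene, 200 changed genes, as many up as down, and no shift of a whole library. Of changes of 1 log2 unit 72% and 82% were recovered (100% and 100% of 2 units), with 3 and 16 unchanged genes called. These rates do not cover a shift of the all-gene median such as that in the knockdown. The simulated noise took SDs already moderated by eBayes, so unmoderated differences in spread between genes are not covered either. The members and the 6 lists were chosen with earlier results of these data known. Named list genes are up to 3 called genes per list and experiment with the largest fold and no overlap. Likeness is Pearson r of log2(TPM + 1), centred per table. List symbols were matched by symbol, then by gene ID. Python 3.11.15, pandas 2.3.3, NumPy 2.4.6 and Matplotlib 3.10.9 were used.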

Additional observations from a re-analysis of the deposited data

How the results depend on the processing

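PRMT5 under shPRMT5 and MAT2A under ΔNp63α kept their direction and call under every alternative run. In the knockdown the counts of higher and lower genes (1904 and 440) were 480 and 886 after median-of-ratios rescaling, 756 and 237 with no filter on low values and 950 and 203 without the intensity trend, and 400 were higher after quantile normalization. With each library left out they ranged from 170 to 2385 higher and from 154 to 716 lower. Members called higher (2) were 1 with no filter, 1 after quantile normalization, 0 after rescaling and 0 to 4 with a library left out. In the overexpression 1527 genes were higher after quantile normalization (982 as reported), and with a library left out 417 to 1431 were higher, 1150 to 1947 lower, and 1 to 5 members higher. The log2 fold of CLNS1A under shPRMT5 changed sign to -0.014 after rescaling and to -0.013 without shGFP replicate 1. That of MTAP under ΔNp63α did so at 0.056 after rescaling, 0.116 after quantile normalization, and 0.024 and 0.085 without vector replicate 3 or ΔNp63α replicate 1; none of these was called. With a library left out CLNS1A lay between -0.013 and 0.528 and MTAP between -0.054 and 0.085. The cause of these shifts was not tested. MTAP lies under the stricter filter, a mean TPM of 5, in the knockdown and has no value there. The alternative without mitochondrially encoded genes could not be run for that table, which lists none. In the overexpression it left 3 members higher and 0 lower. The methionine cycle then had 2 higher and 2 lower genes (2 and 0 as reported), and salvage and polyamines 2 and 4 (2 and 2). Sm proteins had 6 and 0 (8 and 0), substrates 2 and 5 (3 and 2), binding partners 2 and 1 (2 and 0) and 9p21 1 and 0 (1 and 0). The shares of all genes in that fit are not given here.

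Same-numbered libraries deviated together with r = 0.087 in the knockdown and 0.324, 0.231 and 0.086 in the overexpression. Differently numbered libraries had r from -0.332 to 0.137 in the overexpression. In the knockdown they had r = -0.087, where 2 libraries a group force the opposite sign. Whether same-numbered libraries were prepared together is therefore not settled, and the titles give only the number. With a replicate block 2856 genes were higher and 630 lower in the knockdown and 1473 and 2416 in the overexpression, and 3 and 4 members were higher. Not every vector library correlated best with its own number. The number of libraries, 2 or 3 per group, limits the precision.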

Other observations

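Levels of the members in the 2 tables, which were normalized separately, are given side by side. COPRS had a mean of 249.5 TPM over the knockdown libraries and 121 TPM over the overexpression libraries, a log2 ratio of 1.05 that exceeds that of 89.9% of the genes in both tables. MTAP had means of 3.31 and 8.58 TPM, a log2 ratio of -1.37 that exceeds that of 14.01% of the genes. For PRMT5 and MAT2A the log2 ratio was -0.20 each, near the median of -0.19 over all genes. The antisense gene PRMT5-AS1 stood at 0.0317 to 0.152 TPM in the knockdown table and at 0.0558 to 0.380 TPM in the overexpression table, and PRMT5-DT, which starts beside PRMT5, at 1.09 to 1.70 and at 0.573 to 2.26 TPM. Both were chosen after their values were seen.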
